A study of Homo sapiens with 3 samples.

Results

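Metallothioneins are small cysteine-rich proteins that bind zinc and copper, and 7 of their genes (MT2A, MT1E, MT1M, MT1F, MT1G, MT1H and MT1X) are described here with MTF1, the transcription factor that senses zinc, and SLC30A1, the zinc exporter of the plasma membrane. The members were chosen by gene symbol: a probe set was taken where the platform annotation paired it with 1 symbol and that symbol was one of the 9. This gave 17 probe sets of 9 genes, out of 41097 probe sets of 19775 genes with 1 symbol. Cells of MDA-MB-231, an established human breast cancer line that usually lacks oestrogen receptor alpha, were compared after 3 h with 1 µM of the peptide ERα17p, with 1 µM of the oestrogen estradiol, or with 0.1% ethanol as vehicle, at 1 array for each. All cells had first been kept for 4 h in 10% serum stripped with charcoal, a step that removes steroids. ERα17p takes its sequence from the oestrogen receptor alpha, and the labels do not name its solvent. An ethanol percentage is given for the vehicle cells only, not for the estradiol cells. The comparisons ask how each agent differs from vehicle in early expression, and how the peptide differs from the hormone.

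When free zinc rises in a cell, MTF1 moves to the nucleus and binds metal response elements, short DNA motifs in the promoters of metallothionein genes and of SLC30A1. Metallothioneins then bind the metal, and SLC30A1 carries it out of the cell. Glucocorticoids and oxidative stress also raise metallothionein expression, and in breast tumours these genes have been studied for their link to proliferation and drug resistance. The 7 metallothionein genes lie in 1 cluster on chromosome 16, in the order MT2A, MT1E, MT1M, MT1F, MT1G, MT1H and MT1X in the RefSeq gene table, with pseudogenes between them. MTF1 and SLC30A1 lie on chromosome 1.

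RefSeq promoter sequences (GRCh38.p14) were at hand for 5 of the 9 members. The 4 shown are those with a match to the core of the element through which MTF1 acts. Each line gives the 250 bases before the gene's start, 5′ to 3′ on the gene's strand, with capitals at matches to the core of the metal response element, written TGCACNC or TGCGCNC and searched on both strands.
MT2A: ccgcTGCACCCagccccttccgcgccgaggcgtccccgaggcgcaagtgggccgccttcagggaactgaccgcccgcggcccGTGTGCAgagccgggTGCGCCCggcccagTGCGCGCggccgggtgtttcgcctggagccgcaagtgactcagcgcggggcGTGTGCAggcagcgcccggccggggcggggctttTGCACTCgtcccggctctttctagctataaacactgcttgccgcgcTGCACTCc
MT1H: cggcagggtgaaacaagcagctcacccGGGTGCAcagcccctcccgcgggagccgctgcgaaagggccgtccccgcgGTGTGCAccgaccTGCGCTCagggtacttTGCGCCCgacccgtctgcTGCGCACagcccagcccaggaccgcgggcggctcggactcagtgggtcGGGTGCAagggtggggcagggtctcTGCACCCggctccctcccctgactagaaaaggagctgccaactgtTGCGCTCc
MT1X: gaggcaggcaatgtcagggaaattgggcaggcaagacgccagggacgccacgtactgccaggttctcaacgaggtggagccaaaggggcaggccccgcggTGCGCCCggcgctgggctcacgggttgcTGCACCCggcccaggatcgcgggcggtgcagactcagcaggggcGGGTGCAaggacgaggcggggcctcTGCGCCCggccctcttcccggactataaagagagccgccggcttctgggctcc
SLC30A1: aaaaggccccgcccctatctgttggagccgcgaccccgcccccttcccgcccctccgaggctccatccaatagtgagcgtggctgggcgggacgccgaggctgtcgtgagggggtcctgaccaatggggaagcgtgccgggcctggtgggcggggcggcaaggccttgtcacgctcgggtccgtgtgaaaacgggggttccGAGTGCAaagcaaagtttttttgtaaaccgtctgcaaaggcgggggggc
These windows are chr16:56608334-56608583 (+) for MT2A, chr16:56669564-56669813 (+) for MT1H, chr16:56682220-56682469 (+) for MT1X and chr1:211579162-211579411 (-) for SLC30A1. The core matched at 7 places in MT2A, 8 in MT1H, 4 in MT1X and 1 in SLC30A1, with no match overlapping another. At least 1 match was present in 24.8% of 35116 promoter windows of this length. At least 4 were present in 0.370%, at least 7 in 0.0313% and at least 8 in 0.0171%. The window of MTF1 itself had 0 matches. A match is a run of letters, and no binding was measured here.

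Each value below is a log2 expression value of 1 probe set on 1 array, which appears from the values to have been centred per probe set on a level that no source describes, and each difference is between 2 arrays. The centring removed the expression level, so whether a member was strongly or barely expressed is unknown, and markers of the cell line could not be checked as levels. With 1 array a group there is no test, no error and no replicate check, and every statement describes these 3 arrays. A difference of at least 1.5-fold is used as a rule of size. The vehicle array had the widest spread of centred values, with an SD of 0.241 (ERα17p), 0.260 (estradiol) and 0.494 (vehicle). Labelling spikes, bacterial RNAs added before labelling, were 2.04 (ERα17p) and 2.03 (estradiol) above vehicle, and hybridisation spikes were at -0.93 and -0.74. Between ERα17p and estradiol the same spikes differed by 0.00 and -0.15, and the direct comparison does not use the vehicle array.

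The suffix of a probe set bears on what it can read. Of the 11 metallothionein probe sets, 9 end in _x_at, which on this platform marks probes that can also match other transcripts, and metallothionein transcripts are close in sequence. These 9 are therefore not independent readings of separate genes. The other 2 metallothionein probe sets, 210472_at of MT1G and 217546_at of MT1M, carry no such mark. Of the rest, all 3 of SLC30A1 carry none, and 2 of the 3 of MTF1 end in _s_at, which marks probes shared by several transcripts.

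Metallothioneins were highest on the estradiol array. All 11 probe sets had their highest value there, whereas the estradiol array was the highest of the 3 for 32.2% of all probe sets with 1 symbol and for 26.7% of the 2998 that end in _x_at. Their centred values ran between -0.28 and 0.03 on the ERα17p array (median -0.04), between 0.19 and 0.61 on the estradiol array (median 0.25), and between -0.25 and 0.14 on the vehicle array (median -0.07). These ranges run over probe sets of 1 array each, not over replicates. The lowest estradiol value, 0.19, and the highest vehicle value, 0.14, were close and came from different probe sets.

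**Figure D1:**
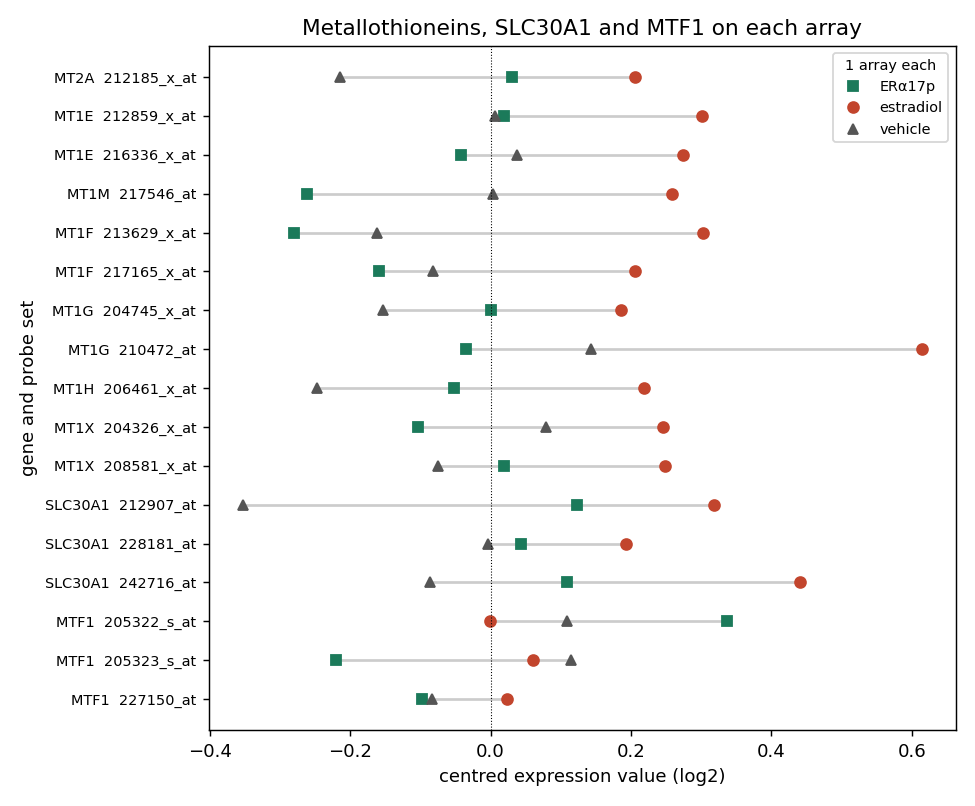
Centred log2 expression value (x axis) of the 17 probe sets (y axis) on the ERα17p (squares), estradiol (circles) and vehicle (triangles) arrays, with a grey line from the lowest to the highest. All 11 metallothionein and all 3 SLC30A1 probe sets have the estradiol circle farthest to the right, and the 3 MTF1 probe sets have no common order.

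MT2A, the most widely expressed metallothionein in human tissues, had centred values of 0.03 with ERα17p, 0.21 with estradiol and -0.21 with vehicle (212185_x_at). Of the 11 metallothionein probe sets it was the one with the smallest distance between the treated arrays, at -0.18 for ERα17p minus estradiol. Both treated arrays lay above vehicle, by 0.24 (1.18-fold) with ERα17p and 0.42 (1.34-fold) with estradiol.

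MT1H had a like order, with -0.05 for ERα17p, 0.22 for estradiol and -0.25 for vehicle (206461_x_at). It was 0.19 above vehicle with ERα17p and 0.47 above it with estradiol. MT1X, the gene at the end of the cluster, was read by 2 probe sets. Its 204326_x_at was at -0.10, 0.25 and 0.08 on the ERα17p, estradiol and vehicle arrays, and its 208581_x_at at 0.02, 0.25 and -0.07. The 2 probe sets of MT1X thus had the same estradiol value to 2 decimals and put ERα17p on opposite sides of vehicle.

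MT1E was likewise read by 2 _x_at probe sets. 212859_x_at was at 0.02 with ERα17p, 0.30 with estradiol and 0.01 with vehicle, and 216336_x_at at -0.04, 0.27 and 0.04. ERα17p differed from vehicle by 0.01 and -0.08 in these, and estradiol was 0.29 and 0.24 above it. The MT1F probe sets were lowest with ERα17p: 213629_x_at was at -0.28, 0.30 and -0.16 on the ERα17p, estradiol and vehicle arrays, and 217165_x_at at -0.16, 0.21 and -0.08.

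MT1G and MT1M have the 2 metallothionein probe sets whose names carry no mark of cross-hybridisation. 210472_at of MT1G was at -0.03 with ERα17p, 0.61 with estradiol and 0.14 with vehicle, the highest estradiol value of any member. The other MT1G probe set, 204745_x_at, was at 0.00, 0.19 and -0.15. Both put estradiol highest, but 204745_x_at had ERα17p above vehicle by 0.15 and 210472_at had it at -0.18 from vehicle. 217546_at of MT1M was at -0.26 with ERα17p, 0.26 with estradiol and 0.00 with vehicle, so that estradiol and ERα17p stood at about equal distances on either side of vehicle.

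SLC30A1 was also highest on the estradiol array in all 3 of its probe sets, none of which carries a suffix. 212907_at was at 0.12 with ERα17p, 0.32 with estradiol and -0.35 with vehicle. 242716_at was at 0.11, 0.44 and -0.09 on those arrays, and 228181_at at 0.04, 0.19 and -0.00396. Every SLC30A1 probe set had vehicle as its lowest array, as did 5 of the 11 metallothionein probe sets. MTF1 had no such order. 205322_s_at was highest with ERα17p (0.34 with ERα17p, -0.00144 with estradiol and 0.11 with vehicle), 205323_s_at was highest with vehicle (-0.22, 0.06 and 0.11), and 227150_at was highest with estradiol (-0.10, 0.02 and -0.08).

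Estradiol against vehicle gave small differences that ran one way in the metallothioneins. All 11 probe sets were higher with estradiol, against 50.2% of all probe sets with 1 symbol. Their median difference was 0.32, beside 0.00 over all probe sets, and they ran from 0.17 (204326_x_at of MT1X) to 0.47 (210472_at of MT1G), which is 1.12-fold to 1.39-fold. None of the 11 reached 1.5-fold in the deposited values, while after quantile normalisation 210472_at of MT1G did, at 0.70. SLC30A1 was 0.67 (1.59-fold, 212907_at), 0.53 (1.44-fold, 242716_at) and 0.20 (1.15-fold, 228181_at) higher. The 3 MTF1 probe sets were at -0.11, -0.05 and 0.11.

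Counted over all members, 1 of 17 probe sets was higher by 1.5-fold or more with estradiol than with vehicle, where 14.1% of all probe sets were, and 0 of 17 were lower by that size, where 11.4% were. All members but 212907_at of SLC30A1 lay below this size. Their differences lay well within the central 95% of all probe sets, which ran from -1.21 to 1.45, and the largest of them, that of 212907_at, exceeded 88.2% of all probe sets.

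ERα17p against vehicle showed no shared direction in the metallothioneins. Of 11 probe sets 5 were higher with ERα17p and 6 lower, where 50.9% and 48.5% of all probe sets were, with a median of -0.08 beside 0.01 over all probe sets. The values ran from -0.26 (217546_at of MT1M, 0.833-fold) to 0.24 (212185_x_at of MT2A, 1.18-fold). Both MT1F probe sets were lower, at -0.12 and -0.08, and the MT1E probe sets lay on either side, at 0.01 and -0.08. SLC30A1 was 0.48, 0.20 and 0.05 higher in 212907_at, 242716_at and 228181_at, and MTF1 was at 0.23, -0.33 and -0.01 in 205322_s_at, 205323_s_at and 227150_at. No member reached 1.5-fold in either direction: the counts were 0 of 17 higher and 0 of 17 lower, where 13.1% and 11.0% of all probe sets were past that size.

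**Figure D2:**
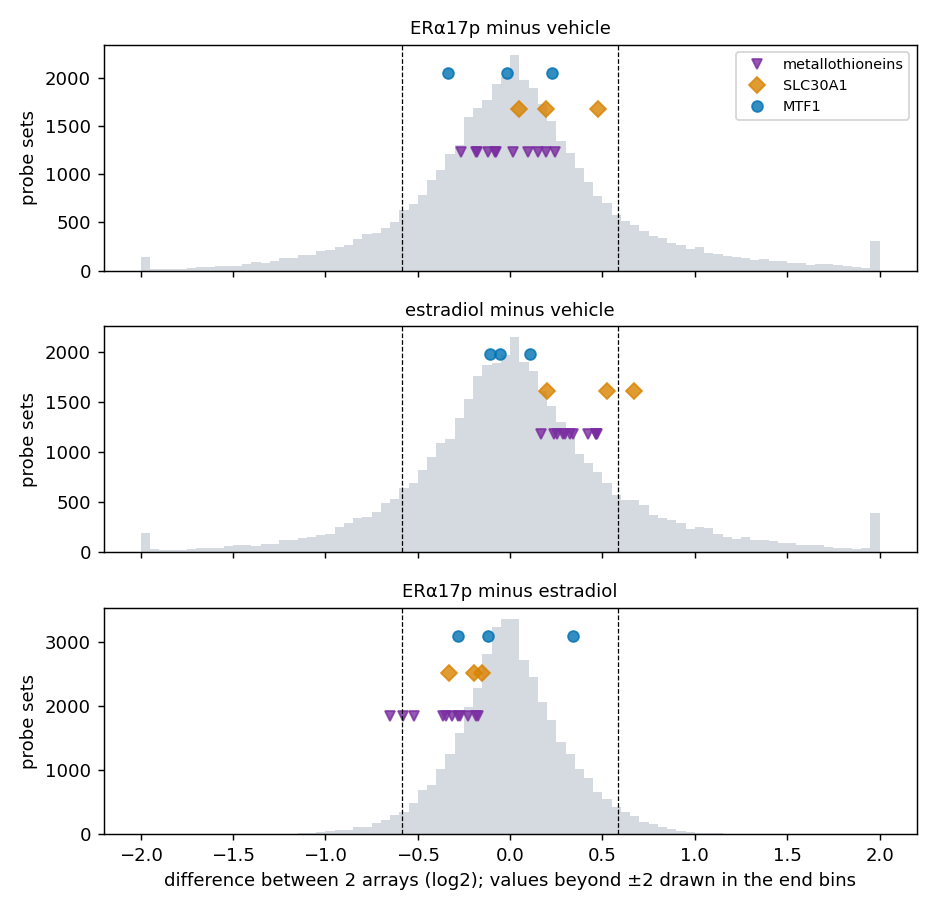
Histograms of the log2 difference between 2 arrays (x axis) over 41097 probe sets (y axis: number of probe sets), for ERα17p minus vehicle, estradiol minus vehicle and ERα17p minus estradiol, with the member probe sets marked above at arbitrary heights and dashed lines at 1.5-fold. Metallothioneins (triangles) lie right of 0 for estradiol minus vehicle, on both sides of 0 for ERα17p minus vehicle, and left of 0 for ERα17p minus estradiol.

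Set directly against each other, ERα17p was lower than estradiol in all 11 metallothionein probe sets, where 51.4% of all probe sets were lower. The median difference was -0.32, beside -0.01 over all probe sets, with a range from -0.65 to -0.18. The same estradiol array stands on the other side of the estradiol minus vehicle comparison, so the shared signs of the 2 comparisons are not separate observations. Of the _x_at probe sets the farthest was 213629_x_at of MT1F at -0.58 (0.668-fold), and the nearest to 0 was 212185_x_at of MT2A at -0.18.

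The 2 metallothionein probe sets without a suffix were among the farthest in the direct comparison. 210472_at of MT1G was at -0.65 (0.638-fold) and 217546_at of MT1M at -0.52 (0.698-fold), whereas the 9 _x_at probe sets had a median of -0.28. For MT1G the _x_at probe set 204745_x_at was at -0.19 (0.879-fold), so that the 2 readings of this gene fell on either side of the family's median. Only 2.32% of all probe sets lay below 210472_at in this comparison, and 4.58% below 217546_at. The central 95% of all probe sets ran from -0.63 to 0.65, and 210472_at was the only member outside it. Against vehicle these 2 probe sets were at -0.18 and -0.26 with ERα17p and at 0.47 and 0.25 with estradiol.

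SLC30A1 followed the same side in the direct comparison, at -0.20, -0.33 and -0.15 in 212907_at, 242716_at and 228181_at, with ERα17p lower in all 3. MTF1 was split, with 205322_s_at at 0.34, 205323_s_at at -0.28 and 227150_at at -0.12. Of the 17 member probe sets, 1 (210472_at of MT1G) was at least 1.5-fold lower with ERα17p than with estradiol and 0 at least 1.5-fold higher. Over all probe sets 3.27% were at least 1.5-fold lower and 3.61% higher. Just short of 1.5-fold lay 213629_x_at of MT1F. At 2-fold the count was 0 of 17 in each direction of every comparison, where 5.63% of all probe sets were higher and 3.82% lower with ERα17p than with vehicle, 6.14% and 4.02% with estradiol than with vehicle, and 0.226% and 0.314% with ERα17p than with estradiol.

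Of 13 further genes and pseudogenes listed for the family, 3 had a probe set with 1 symbol. MT1HL1, a metallothionein-like gene named for its likeness to MT1H, was at -0.00411 with ERα17p, 0.21 with estradiol and -0.15 with vehicle in 211456_x_at, within 0.1 of the MT1H values on every array. MT4, expressed mainly in stratified epithelia, was at -0.23, 0.00 and -0.30 in 217395_at, again highest with estradiol. MT3, the metallothionein of the brain, was at -0.12, -0.19 and -0.16 in 205970_at, and was the only one of these 3 with estradiol as its lowest array. Levels are unknown, so whether MT3 or MT4 was expressed in these cells cannot be said.

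The zinc transporters outside the members had more values past 1.5-fold against vehicle than between the treatments, as all probe sets did. The counts of the lists that follow stand beside shares over all probe sets of 13.1% higher and 11.0% lower for ERα17p against vehicle, 14.1% and 11.4% for estradiol against vehicle, and 3.61% and 3.27% for ERα17p against estradiol. The 9 other SLC30 genes, most of which move zinc out of the cytosol or into vesicles, had 23 probe sets. Of these, 7 passed 1.5-fold upward and 1 downward with ERα17p relative to vehicle (median 0.29). With estradiol 8 passed it upward and 0 downward (median 0.34). In the direct comparison 1 was higher and 0 lower (median 0.00). SLC30A5, which loads zinc into the secretory pathway, was 1.64 above vehicle with ERα17p and 1.52 with estradiol as the median of 5 probe sets. These ran from 0.29 to 2.22 and from 0.40 to 1.92. Between the treatments the median difference of SLC30A5 was 0.10. The others farthest from vehicle were SLC30A9, SLC30A4 and SLC30A3. SLC30A9 had medians of 0.53 and 0.74 over 2 probe sets, from 0.38 to 0.67 and from 0.63 to 0.84. SLC30A4, a vesicular transporter, had medians of 0.53 and 0.51 over 3 probe sets, from -0.35 to 1.06 and from -0.00281 to 1.04. SLC30A3, the transporter of synaptic vesicles, was at -0.56 and -0.54 in 1 probe set. The comparisons with vehicle share the vehicle array, and its part in these values was not tested; the labelling spikes stood 2.04 and 2.03 above it.

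Zinc importers of the SLC39 family had 31 probe sets of 14 genes. With ERα17p 7 were at least 1.5-fold higher than vehicle and 2 lower, above the share for all probe sets upward (13.1%) and below it downward (11.0%) (median 0.09), and with estradiol 7 higher and 1 lower (median 0.07). SLC39A6 is known as LIV-1 and has long been studied as an oestrogen-regulated gene of breast cancer. It was 1.59 above vehicle with ERα17p and 1.04 with estradiol as the median of 4 probe sets. These ran from 0.49 to 2.11 and from 0.45 to 1.90. For ERα17p minus estradiol the median of SLC39A6 was 0.27, with probe sets from -0.07 to 0.89. SLC39A4, the intestinal zinc importer, was at -1.02 and -0.55. SLC39A13, an importer of the secretory pathway, had medians over 2 probe sets of -0.81 and -0.59. These ran from -1.19 to -0.43 with ERα17p and from -1.03 to -0.16 with estradiol. SLC39A11 was 0.49 higher with ERα17p and 1.01 higher with estradiol. Directly compared, 3 probe sets were higher and 1 lower with ERα17p than with estradiol (median -0.04).

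Copper handling genes and genes of the response to heavy metals and oxidants lay on both sides of 0 between the treatments, with 6 of 13 and 10 of 22 probe sets higher with ERα17p than with estradiol. Of 13 copper probe sets, 5 were at least 1.5-fold higher and 0 lower than vehicle with ERα17p (median 0.43), and 5 higher and 1 lower with estradiol (median 0.24), with 0 past this size between the treatments (median -0.04). The upward copper counts were above the shares of all probe sets, 13.1% with ERα17p and 14.1% with estradiol. ATP7A, a copper-exporting ATPase, was 1.34 above vehicle with ERα17p and 1.33 with estradiol as the median of 2 probe sets. These ran from 1.01 to 1.68 and from 0.73 to 1.94. The next 3 genes had 1 probe set each. SLC31A2 was 1.32 and 1.52 above vehicle, and COX17, a mitochondrial copper chaperone, 0.49 and 0.91. The copper chaperone ATOX1 was at -0.56 and -0.67. Of 22 stress response probe sets, 6 were higher and 2 lower than vehicle with ERα17p (median 0.07), 4 higher and 2 lower with estradiol (median 0.21), and 1 higher and 0 lower between the treatments (median -0.03). HMOX1, the haem oxygenase that cadmium and other metals induce, was at -0.85 with ERα17p and -0.39 with estradiol. GCLM and GCLC, which encode the enzyme that makes the glutathione precursor, had medians over 3 probe sets each of 1.18 and 0.71 above vehicle with ERα17p and 0.86 and 0.50 with estradiol. The GCLM probe sets ran from 0.39 to 1.67 with ERα17p and from -0.33 to 1.47 with estradiol, and those of GCLC from -0.28 to 0.77 and from 0.06 to 0.57. KEAP1, the repressor of NFE2L2, was at -0.57 and -0.61.

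**Figure D3:**
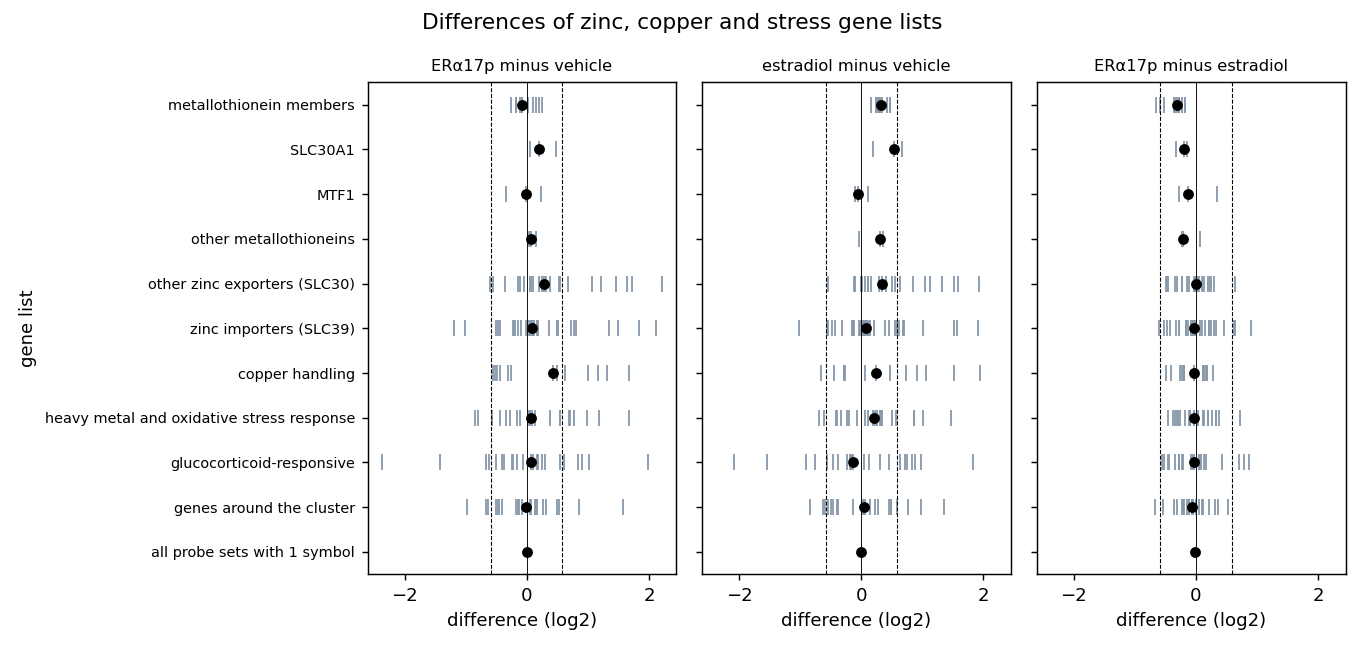
Log2 difference between 2 arrays (x axis) for each probe set (ticks) and the median (black dot) of each gene list (y axis), in the comparisons ERα17p minus vehicle, estradiol minus vehicle and ERα17p minus estradiol, with dashed lines at 1.5-fold and the median of all probe sets in the bottom row. In the right panel all metallothionein ticks lie left of 0 around a median of -0.32, and the zinc exporter ticks lie on both sides around 0.00.

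By nearness of pattern, the genes most like the metallothioneins were AMER2, TMEM237, TDO2, DLGAP2 and MATN1-AS1. Nearness was the Euclidean distance from the metallothionein medians of -0.08 (ERα17p minus vehicle) and 0.32 (estradiol minus vehicle), over 10517 genes with 2 or more probe sets. AMER2 lay at a distance of 0.00428, with -0.08 and 0.33, and the other 4 at 0.0114 to 0.0198. The direct comparison did not enter the distance: there the median of AMER2 over its 3 probe sets was -0.13, nearer to 0 than any metallothionein probe set, and the other 4 lay between -0.42 and -0.41. In all, 128 of the 10517 genes lay within 0.1. Only the medians of the 2 differences from vehicle were compared, not the single probe sets of these genes.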

How the data were processed

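Expression was read on Affymetrix HG-U133 Plus 2 arrays, 1 for each of 3 groups. RMA, with no version, is named in the submitters' processing notes. The deposited values were read as log2, the scale of RMA, although no source states the base. The deposited values appear to be centred, probe set by probe set, on an unknown level. No source states this. It is read from the values: over 54675 probe sets they spread around 0 with an SD of only 0.241 to 0.494, where uncentred RMA values spread over the genes' expression levels, and 7.08% to 8.54% were exactly 0. Of the probe sets, 41097 had 1 symbol in the platform annotation, 1801 had several and 11777 had none; those with several held 0 members.

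Differences were subtractions of deposited values (Python 3.11.15, pandas 2.3.3, numpy 2.4.6), with no background step, filter or pseudocount. Nothing was fitted, and the number of arrays limits precision. Every member probe set is named, up to 4 genes per further list (largest mean difference from vehicle), and the 5 nearest genes. Members and lists were chosen with earlier results of these data known. The subtraction was tested on shuffled array values with known shifts added, which checks the code and not the member differences. Alternatives were quantile normalisation, array centring, suffix and fold limits, and 1 value per gene.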

Additional observations from a re-analysis of the deposited data

How the results depend on the processing

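Across 15 counts and medians, 63 of 76 values under other settings stayed close to those reported, and 13 moved. Close means a count within 1.5 times, or a median within 0.1 on the log2 scale. No sign turned among medians of 0.1 or more in size. Part of the 63 could not have moved, so the tally does not measure stability. A count of 0 at 1.5-fold stays 0 at 2-fold, among fewer probe sets, or with 1 median per gene. Array centring left ERα17p minus estradiol unchanged, since both arrays had a median of 0. After quantile normalisation 3 of 17 member probe sets were at least 1.5-fold higher with estradiol than with vehicle (1 of MT1G and 2 of SLC30A1; 13.2% of all probe sets), and 3 were at least 1.5-fold lower with ERα17p than with estradiol (1 each of MT1G, MT1F and MT1M; 6.63% of all), in place of 1 each; with 1 value per gene or a 2-fold limit both counts were 0. With 1 value per gene, where 7 metallothionein values are left, 7 were higher with estradiol than with vehicle and 2 were higher with ERα17p than with vehicle. Without suffixed probe sets only 2 metallothionein probe sets are left: 2 were higher with estradiol than with vehicle and 0 with ERα17p than with vehicle, and the median was -0.22 for ERα17p minus vehicle and -0.58 for ERα17p minus estradiol. With the centring level (0) standing in for vehicle, an alternative chosen after seeing the data, 3 of 11 metallothionein probe sets were higher with ERα17p, in place of 5, and all 11 were higher with estradiol. The setting that adds probe sets with several symbols gave no further value, since 0 of them held a member. No paired analysis was possible because each group has 1 array and no test was made. Leaving out a replicate was not possible for the same reason.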

Other observations

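Genes around the metallothionein cluster lay on both sides of 0 between the treatments. Of 22 probe sets of 9 genes, 8 were higher and 14 lower with ERα17p than with estradiol (median -0.06). Of all probe sets 51.4% were lower in this comparison. A size of 1.5-fold was reached downward by 1 of the 22 and upward by 0, beside 3.27% and 3.61% of all probe sets. That 1 probe set reads BBS2, the protein-coding gene next to MT4 in the RefSeq gene table, at -0.68. BBS2 was chosen after its value was seen. On the other side of the cluster NUP93, a nuclear pore protein, was at -0.17 as the median of 2 probe sets. Relative to vehicle, 2 of the 22 passed 1.5-fold upward and 3 downward with ERα17p, beside 13.1% and 11.0% of all probe sets. With estradiol 4 passed it upward and 3 downward, beside 14.1% and 11.4%. NUDT21, an mRNA 3′ processing factor, was 0.53 above vehicle with ERα17p and 0.76 with estradiol as the median of 3 probe sets. These ran from 0.50 to 1.57 and from 0.45 to 1.35. For ERα17p minus estradiol the median of NUDT21 was 0.05, with probe sets from -0.23 to 0.22. CPNE2 (-0.66 and -0.60) and CETP (-0.63 and -0.62) lay below vehicle.

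Glucocorticoid-responsive genes, a class whose regulator, the glucocorticoid receptor, is also known to induce MT2A, were spread on both sides. Of 23 probe sets of 8 genes, 5 were at least 1.5-fold higher and 4 lower than vehicle with ERα17p (median 0.08), 7 higher and 4 lower with estradiol (median -0.13), and 3 higher and 0 lower between the treatments (median -0.02). The glucocorticoid receptor gene NR3C1 was 0.83 and 0.75 above vehicle as the median of 5 probe sets, which ran from -0.66 to 1.02 and from -1.54 to 0.97. DUSP1 had medians over 3 probe sets of -0.50 and -0.75 (from -2.38 to -0.06 and from -2.09 to 0.05). The DUSP1 probe sets all lay below vehicle with ERα17p, but not with estradiol. FKBP5 had medians over 3 probe sets of -0.61 and -0.57 (from -1.42 to 0.54 and from -0.90 to 0.88). The FKBP5 probe sets lay on both sides of vehicle with each agent. ZBTB16, read by 1 probe set, was at -0.40 and -0.46. Over all probe sets, 13.1% passed 1.5-fold upward and 11.0% downward for ERα17p against vehicle, 14.1% and 11.4% for estradiol against vehicle, and 3.61% and 3.27% for ERα17p against estradiol. Of 21 luminal breast marker probe sets, 0 were at least 1.5-fold higher and 2 lower than vehicle with ERα17p, and 2 higher and 1 lower with estradiol. Of 33 mesenchymal marker probe sets, 13 were higher and 2 lower with ERα17p, and 12 higher and 3 lower with estradiol; 9 and 11 of the 33 were below vehicle by any size. SNAI2, with 1 probe set, was at 2.08 and 1.84, whereas the 7 probe sets of FN1 ran from -1.44 to 1.12 and from -2.28 to 0.94, and the 13 of CD44 from -0.87 to 1.02 and from -1.31 to 1.20. Their part in the metallothionein values was not tested.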
